A study of Rattus with 7 samples.

Results

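The genes for the natriuretic peptides and the fetal contractile isoforms are the classical transcript markers of cardiac load and hypertrophy. They were described in RNA from isolated ventricular cardiomyocytes of male wild-type Wistar rats with a stated age of 8 weeks. Rats of the hypergravity group were exposed to 4 g in a centrifuge for 14 days at 8 hours per day, and control rats stayed in the same room without centrifugation. Whether the stated age is that before or after these 14 days is not given. The analysis covered 4 control libraries (replicates 4 to 7) and 3 hypergravity libraries (replicates 4 to 6). The sequencing methods of the study report more, 7 control and 6 hypergravity replicates, each taken from a different heart. Its statistics section instead gives 3 hearts per group for the RNA levels of channel genes. How the libraries analysed here relate to these numbers is not given. The SDs, main fits and exact permutation tests treat the libraries as independent, which was not tested. The rule for this group names 6 genes, and 4 of them carried an Ensembl identifier that could be linked to the count files, out of 23092 identifiers in all. These were Nppa (ENSRNOG00000008176), Nppb (ENSRNOG00000008141), Myh7 (ENSRNOG00000016983) and Acta1 (ENSRNOG00000017786). Their identifiers come from the rule itself and were not checked against a gene table, because the files list identifiers without names and the RefSeq table used here held no Ensembl identifiers. Myh6 and Actc1, and with them the ratios of Myh7 to Myh6 and of Acta1 to Actc1, were not analysed here. All 4 genes passed the filter on low counts.

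Nppa and Nppb encode the precursors of atrial and B-type natriuretic peptide, hormones that cardiomyocytes secrete when the wall is stretched and that promote sodium excretion and vasodilation. In the adult heart Nppa is mainly an atrial transcript, and ventricular myocytes express it strongly in fetal life and again under overload. Myh7 encodes the slow beta myosin heavy chain, which rodent ventricles largely replace after birth with the fast alpha chain of Myh6. Acta1 encodes skeletal alpha actin, the partner of the cardiac alpha actin of Actc1, and it too is abundant in the fetal and the overloaded ventricle. In the RefSeq table for the rat assembly GRCr8, Nppa and Nppb are direct neighbours, and Myh7 lies next to Myh6.

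Between 54231211 and 100702376 reads per library fell on genes, and each of the 4 genes had at least 4634 counts in every library. Reads that aligned to more than 1 place were set aside by the counting. They made up 2.87% to 3.29% of the counted total per library, which holds no unaligned reads. What near-identical stretches of Myh6, or of other actins beside Acta1, add to or take from these counts was not measured. Counting ignored strand, and reads on more than 1 annotated gene were set aside as ambiguous (2.49% to 2.93% of the same total per library). Overlapping Myh7, GRCr8 lists 3 other entries (LOC120096985, LOC120096984 and Mir208b), and reads of an overlapping transcript that the counting annotation lacked cannot be told apart from those of Myh7. No entry overlaps Nppa, Nppb or Acta1 there. The label of ventricular cardiomyocytes was not checked here against its markers, because no marker identifier carries a name. In such bulk RNA, fewer cells of a type and less RNA per cell cannot be told apart.

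None of the 4 genes rose or fell past the threshold under hypergravity. Counts were scaled by TMM and compared in edgeR by its quasi-likelihood F test. P-values were adjusted over all 13258 genes tested (Benjamini-Hochberg), with a threshold of 0.05. Past this threshold were 0 of the 4 genes, beside 0.528% of all genes tested. At an unadjusted p-value under 0.05 there were again 0 of the 4 in edgeR, beside 24% of all genes. The groups did not overlap in 0 of the 4 genes, beside 22.2% of all genes. With only 4 genes, a count of 0 cannot be told apart from shares of this size. With the replicate number as a block, 0 of the 4 passed beside 20.2% of all genes, with DESeq2 0 of the 4 beside 10.8%, and with limma voom 0 of the 4 beside 11.9%.

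**Figure D1:**
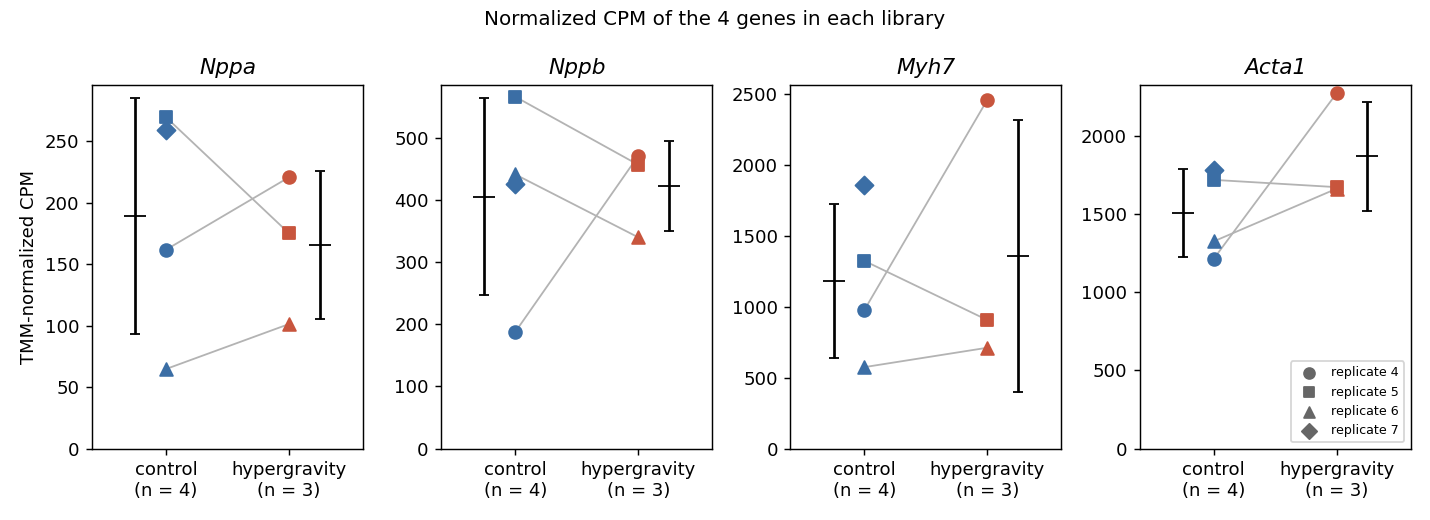
Each panel plots the TMM-normalized CPM of 1 gene (vertical axis from 0) in 4 control libraries (blue) and 3 hypergravity libraries (red). Symbols give the replicate number, grey lines join libraries with the same number, and black bars show the group mean and SD. The groups overlap in every panel, and replicate 6 holds the lowest Nppa and Myh7 values of both groups.

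Nppa, the atrial natriuretic peptide gene, was present at 162, 269.7, 64.8 and 259.6 normalized CPM (counts scaled to the library total, corrected by the TMM factor) in control replicates 4, 5, 6 and 7. In hypergravity replicates 4, 5 and 6 its level was 221, 175 and 101. All 3 hypergravity values lay inside the control range, and replicate 6 was the lowest library of each group. Control libraries averaged 189 ± 96.0 CPM (SD, n = 4) and hypergravity libraries 166 ± 60.3 CPM (SD, n = 3). The log2 fold change was -0.19 with a standard error of 0.47 (adjusted p = 0.834, edgeR). Its 95% interval corresponded to a fold from 0.415 to 1.85. In this fit, which ignores the replicate numbers, neither a fall nor a rise of moderate size can be told from no change. The sign itself depended on the fit. With the replicate block, over replicates 4 to 6, the log2 fold change was 0.11 with a standard error of 0.24 (adjusted p = 0.785, edgeR). It was 0.64 with limma voom and sample quality weights, 0.031 without control replicate 5 and 0.049 without hypergravity replicate 6. In the other direction it was -0.48 without control replicate 6 and -0.47 without hypergravity replicate 4.

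Nppb, the gene of B-type natriuretic peptide, stood at 188, 566, 441 and 426 normalized CPM in control replicates 4 to 7. Under hypergravity it was measured at 471, 457 and 340.0 CPM in replicates 4, 5 and 6. Control replicate 4 was below all other libraries, and the 3 hypergravity values again lay inside the control range. Group means of 405 ± 158 (SD, n = 4) and 423 ± 72.0 CPM (SD, n = 3) gave a log2 fold change of 0.061 with a standard error of 0.33 (adjusted p = 0.927, edgeR). The 95% interval ran from 0.618-fold to 1.76-fold. Without control replicate 4 the log2 fold change was -0.18 and its standard error 0.17, and without hypergravity replicate 4 the log2 fold change was -0.051. It was highest, at 0.26, without control replicate 5.

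The balance of the 2 peptide transcripts does not depend on how libraries are scaled. Per library, the Nppa count divided by the Nppb count was 0.863, 0.476, 0.147 and 0.609 in control replicates 4 to 7 and 0.469, 0.383 and 0.298 in hypergravity replicates 4 to 6. Nppb counts exceeded Nppa counts in all 7 libraries, although counts of 2 genes are not levels per length. The hypergravity ratios fell within the control range. On the log2 scale the mean ratio was -1.19 ± 1.11 (SD, n = 4) for control libraries and -1.41 ± 0.33 (SD, n = 3) for hypergravity libraries, a difference of -0.22 (exact two-sided permutation test, p = 0.743). With 4 against 3 libraries the smallest p that this test can give is 0.0286. Within the pairs of libraries with number 4, 5 and 6, the ratio differed by -0.88, -0.31 and 1.02, and without control replicate 4 the difference over all libraries was 0.11. Without control replicate 6, the library with the lowest ratio, the difference was -0.74 and all 3 hypergravity ratios lay below the 3 remaining control ratios (exact two-sided permutation test, p = 0.1, the smallest possible with 3 against 3). That library was the only control below the hypergravity ratios, so leaving it out fixed this separation in advance. The closest ratios were then 0.469 and 0.476.

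Myh7, the slow myosin heavy chain, showed the widest spread under hypergravity. It was measured at 978, 1325, 575 and 1860.1 normalized CPM in control replicates 4 to 7 and at 2464, 907 and 712 CPM in hypergravity replicates 4, 5 and 6. Hypergravity replicate 4 was the highest of all 7 libraries, while hypergravity replicates 5 and 6 were below 3 of the 4 control libraries. The means were 1185 ± 545 (SD, n = 4) and 1361 ± 960.2 CPM (SD, n = 3). The log2 fold change was 0.20 with a standard error of 0.50 (adjusted p = 0.834, edgeR), and its 95% interval ran from 0.516-fold to 2.56-fold. Single libraries set its sign. Without hypergravity replicate 4 the log2 fold change was -0.57, and without control replicate 6 it was -0.032. It was higher without hypergravity replicate 5 (0.44), hypergravity replicate 6 (0.48) or control replicate 7 (0.46), and 0.79 with limma voom and sample quality weights.

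Acta1, the skeletal alpha actin gene, came closest to a difference between the groups. In control replicates 4 to 7 it was measured at 1212, 1719, 1325 and 1780.2 normalized CPM. In hypergravity replicates 4, 5 and 6 the values were 2273, 1672 and 1663 CPM. Hypergravity replicate 4 was the highest library, and the other hypergravity libraries lay between the lower and the upper pair of controls. The means were 1509 ± 283 (SD, n = 4) and 1869 ± 349.7 CPM (SD, n = 3). The log2 fold change was 0.31 with a standard error of 0.19 (unadjusted p = 0.137 and adjusted p = 0.345, edgeR). The 95% interval ran from 0.920-fold to 1.67-fold, the narrowest of the 4 genes. By limma voom with sample quality weights, the log2 fold change was 0.47, with an unadjusted p = 0.0222 and an adjusted p = 0.0968. Among the 7 fits that each left out 1 library, the smallest value was 0.11, without hypergravity replicate 4.

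The share of the most abundant genes enters a scaling by library total. The 10 most abundant genes held 42.1% to 48.7% of the gene counts in control and 47.8% to 53.5% under hypergravity, and the TMM factors were 0.997 to 1.34 and 0.819 to 0.931. Scaled by library size alone, the log2 fold change was -0.48 for Nppa, -0.21 for Nppb, -0.064 for Myh7 and 0.016 for Acta1. The median of all genes then lay at -0.34, against -0.017 with TMM. With the 10 most abundant genes left out of the library total it was still -0.21. What else entered the offset was not tested. Relative to the median of -0.34, the 4 values with library size alone were -0.13, 0.13, 0.28 and 0.36 in the same order, each with the sign it had with TMM. As a share of all gene counts, Acta1 took 0.164% ± 0.0152 (SD, n = 4) in the control group, against 0.166% ± 0.0400 (SD, n = 3) in the hypergravity group. Myh7 took 0.128% ± 0.0505 and 0.123% ± 0.0927 of the counts.

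**Figure D2:**
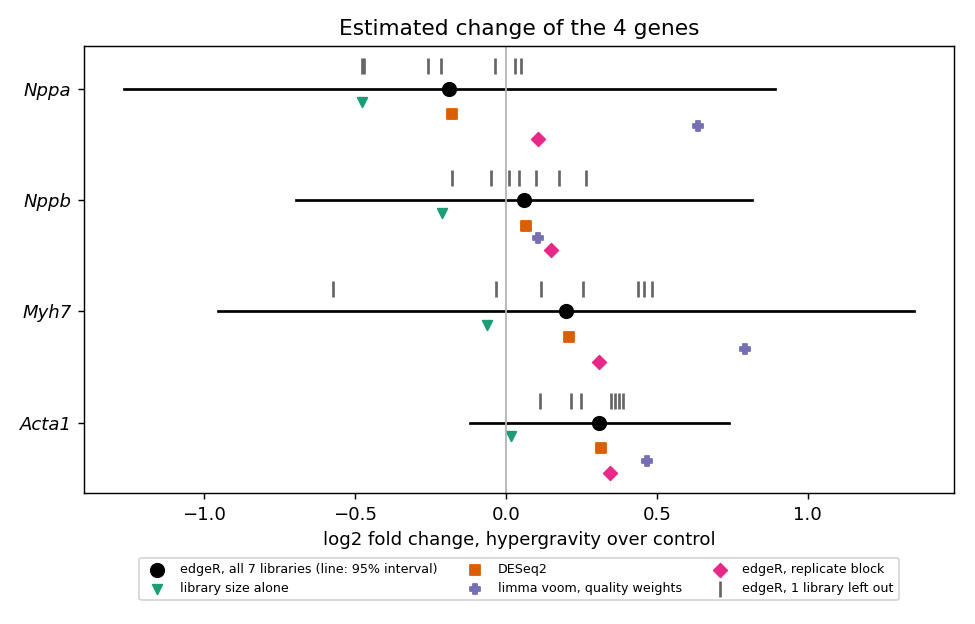
Log2 fold changes of hypergravity over control (horizontal axis) are drawn for the 4 genes, with edgeR over all 7 libraries as a black point and its 95% interval as a line. Grey ticks leave out 1 library each, and coloured symbols give other fits. All 4 intervals cross 0, and Acta1 is the gene whose values all lie above 0, down to 0.016 with library size alone.

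Nppa and Myh7 varied more between libraries of the same group than most other genes counted at a similar level, and Nppb did so through 1 library. The SD of log2 CPM within groups was 0.83 for Nppa, 0.56 for Nppb, 0.82 for Myh7 and 0.27 for Acta1, against a median of 0.24 over all genes tested. Among the 751 other genes with a mean log2 CPM within 1 unit of Nppa, 99.5% had a smaller SD, and the median SD was 0.19. For Nppb the share was 98.9% of 280 genes. Each of the 78 genes at the level of Myh7 varied less than Myh7. Without control replicate 4 the SD of Nppb was 0.24, with 80.7% of the genes at its level below it, and without control replicate 6 the SD of Nppa was 0.50, with 96.8% below it. Myh7 kept the largest SD of the genes at its level with each library left out in turn, at 0.63 to 0.91. Acta1 was unremarkable, with 69.1% of 55 genes below it. In normalized CPM, the highest control library exceeded the lowest 4.16-fold for Nppa, 3.02-fold for Nppb, 3.23-fold for Myh7 and 1.47-fold for Acta1. Under hypergravity the same ratio was 2.18, 1.39, 3.46 and 1.37. Counting error was small beside this spread, since the lowest count, 4634 for Nppa, has a Poisson error of 1.47%. These comparisons of spread are descriptions without a test.

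**Figure D3:**
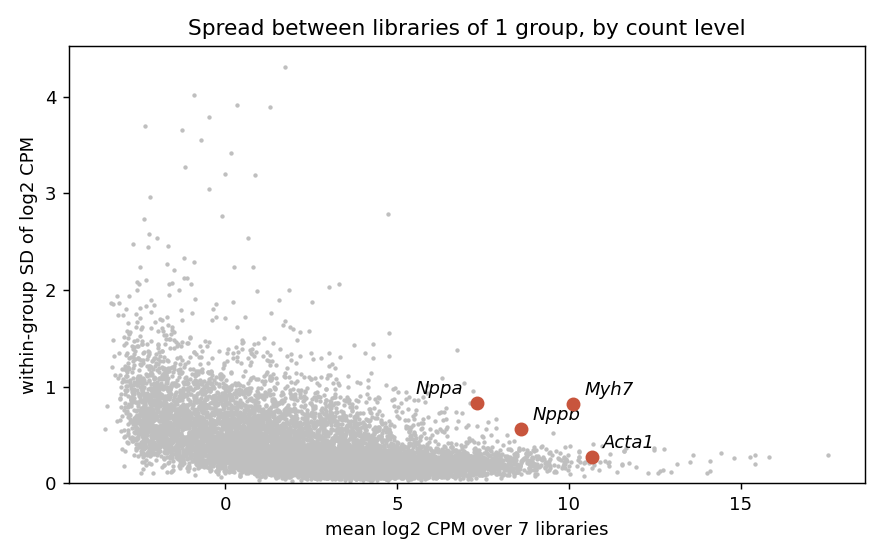
Each grey point is 1 of the genes tested, with its mean log2 CPM over 7 libraries on the horizontal axis and the SD of log2 CPM between libraries of the same group on the vertical axis. Nppa, Nppb and Myh7 (red) lie above nearly all genes of similar count level, Nppb through control replicate 4, and Acta1 lies among them.

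The labels give numbers 4, 5 and 6 to a library of each group, without saying what a number stands for. Over these 6 libraries, 82.5% of the variance of log2 CPM of Nppa lay between numbers and 1.29% between groups. For Myh7 the shares were 60.4% and 7.28%, and for Nppb 37.4% and 4.29%. For Acta1 they were 8.37% and 46.8%. There are more numbers than groups, so noise alone puts a larger share between numbers than between groups. The 2 shares of a gene are therefore not to be ranked against each other directly. The medians over all genes tested were 31.4% between numbers and 38.4% between groups, and 94.8% of genes had a smaller share between numbers than Nppa. The same percentage was 80.7% for Myh7, 57.7% for Nppb and 14.2% for Acta1. Within the pairs, the log2 difference of hypergravity minus control was 0.45, -0.62 and 0.65 for Nppa and 1.33, -0.31 and -0.38 for Nppb. It was 1.33, -0.55 and 0.31 for Myh7 and 0.91, -0.040 and 0.33 for Acta1. With TMM, all 4 genes were higher under hypergravity in pair 4 and all 4 were lower in pair 5, so no gene moved one way in all 3 pairs. Control replicate 4, the partner in pair 4, was also the library with the largest TMM factor, 1.34. Scaled by library size alone, Nppa in pair 4 was lower under hypergravity (206 CPM) than in control (217 CPM). Nppb (439 against 251 CPM), Myh7 (2294 against 1310) and Acta1 (2116 against 1624) stayed higher there, but by less than with TMM. In pairs 5 and 6 the TMM factor was also larger in control (1.01 and 1.08) than under hypergravity (0.819 and 0.899). Within a pair, these factors raise the difference of all 4 genes alike. Which scaling is nearer the truth was not tested.

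The levels of the genes were also compared with each other across the libraries. Over the 7 libraries, the log2 normalized CPM of Nppa and Myh7 correlated at r = 0.84 (exact permutation test, p = 0.0169, 0.101 after Benjamini-Hochberg adjustment over the 6 pairs of genes) and rho = 0.82 (p = 0.0341, adjusted 0.133). Without the 2 libraries farthest from the median of Nppa the correlation was 0.64, and as deviations from the group means it was 0.85. For Myh7 and Acta1 the values were r = 0.75 (exact permutation test, p = 0.0462, adjusted 0.139) and rho = 0.79 (p = 0.0480, adjusted 0.133). With TMM, r was 0.33 without the 2 libraries farthest from the median of Myh7. Leaving these out also narrows the range of Myh7, so the lower r does not show that the relation rested on them. As deviations from the group means r was 0.86. Scaled by library size alone, an alternative chosen after the data were seen, Myh7 and Acta1 correlated at r = 0.93 (exact permutation test, p = 0.00278, adjusted 0.0167) and rho = 0.89 (p = 0.0123, adjusted 0.0738), and r was 0.96 without the 2 libraries farthest from the median. The other 4 pairs had r from 0.22 to 0.64 (exact permutation tests, adjusted p from 0.282 to 0.640) and rho from 0.36 to 0.75 (adjusted p from 0.133 to 0.444). Nppa and Nppb, the neighbouring peptide genes, had the lowest r of the 6 pairs, 0.22, with rho = 0.57, and r was 0.72 without the 2 libraries farthest from the median of Nppa. With TMM, no pair of genes passed 0.05 after adjustment. All values of a library share 1 scaling factor. The permutations treat the 7 libraries as exchangeable, although they come from both groups and the replicate numbers pair 6 of them.

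**Figure D4:**
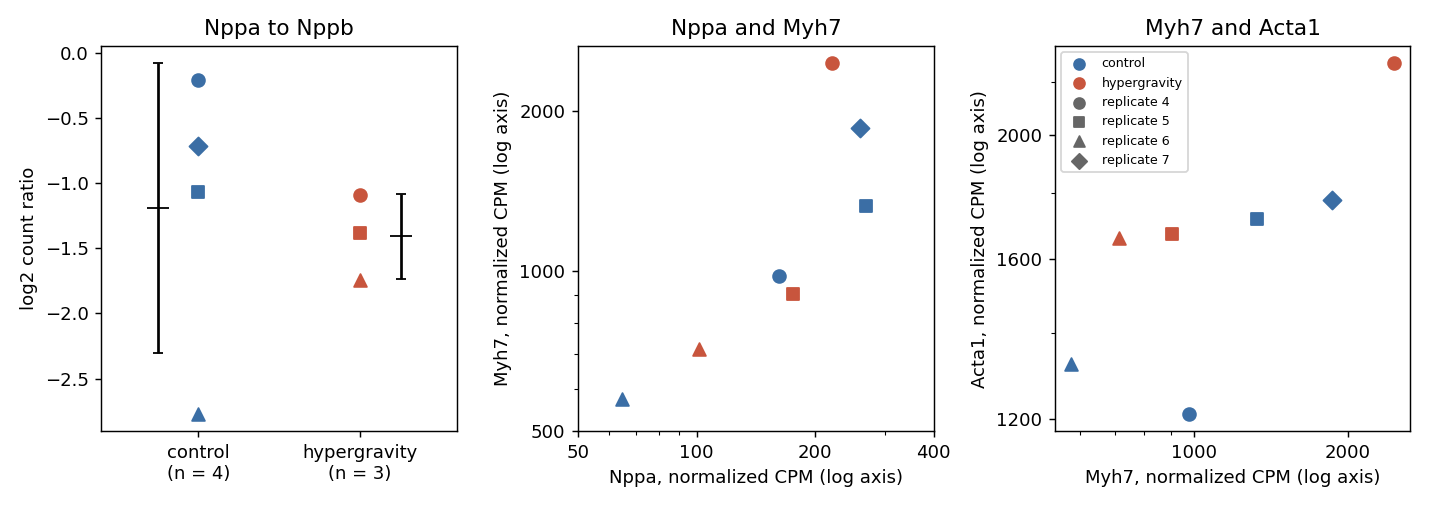
The left panel gives the log2 ratio of Nppa to Nppb counts per library with group mean and SD. The other panels plot normalized CPM of Myh7 against Nppa and of Acta1 against Myh7 on log axes, with colour for the group and symbols for the replicate number. The hypergravity ratios lie inside the control range, and replicate 6 of both groups sits at the low end of Nppa and Myh7.

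The ratios among the genes, which need no scaling, did not pass a test between the groups either. For the 6 ratios of counts among Nppa, Nppb, Myh7 and Acta1, 5 of them added after values were seen, the difference in mean log2 ratio ran from -0.37 (Nppa to Acta1) to 0.048 (Nppb to Myh7). Exact two-sided permutation tests gave p from 0.429 to 0.943, and all were at least 0.891 after Benjamini-Hochberg adjustment. For Myh7 to Acta1, the fetal myosin and actin isoforms, the count ratio was 0.434 to 1.04 in control (n = 4) and 0.428 to 1.08 under hypergravity (n = 3), nearly the same range in both groups.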

How the data were processed

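RNA of ventricular cardiomyocytes was sequenced after poly(A) selection. The authors used Trimmomatic and Fastp for trimming and HISAT2 for alignment to the rat genome build mRatBN7.2. They deposited the unnormalized read counts of each gene, made by HTSeq-count over exons without regard to strand. The annotation release is not given in the sources used here. The 5 summary lines without a gene (9.08% to 10.0% of the counted total, which holds no unaligned reads) were left out. Groups and numbers come from the labels.

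Genes were kept by filterByExpr (minimum count 10, minimum total 15) and compared with edgeR 4.0.16 in R 4.3.3 (TMM, glmQLFit and glmQLFTest, robust, no covariate). Intervals are the fold change plus or minus the t quantile times its standard error. A prior count of 2 entered log2 CPM. DESeq2 1.42.0, limma 3.58.1 (voom with quality weights), other scalings, other filters, a replicate block and leaving out each library were alternatives. Ratios were tested by exact permutation of the libraries. Simulated counts were also run, but no result of them is given here for any fit. Error rates of the fits at the spread of these libraries, DESeq2 and the replicate block included, were not tested.

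Across genes, deviations from group means had correlations of 0.236 (pair 4), 0.457 (pair 5) and 0.327 (pair 6). The numbers were used as pairs only in the replicate block, the pair differences and the shares of variance between numbers. The main fits, with their intervals and p-values, ignore them. The pairing comes from the labels. The correlations are given without those of libraries with unlike numbers and without a test, so they do not establish it. The deposited files are numbered 1 to 4 and 5 to 7 instead, sharing none.

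The genes and lists were chosen with earlier results of these data known. The rule for genes to name took all members and genes of fixed lists of processing, receptor, isoform, regulator and marker genes, and for each member the genes most like it. Without names for identifiers, the lists, levels per length and likeness to genes outside the group were not analysed here.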

Additional observations from a re-analysis of the deposited data

How the results depend on the processing

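Over all genes, 70 passed the adjusted threshold with edgeR, 10 with library size alone, 7 with the library total without the 10 most abundant genes, 1478 with DESeq2, 1579 with limma voom and quality weights, 12 without these weights (an alternative chosen after seeing the data), 2663 with the replicate block and 0 to 590 with each library left out, 590 without control replicate 7. The count was 0 without control replicate 4 or 6 and without hypergravity replicate 4 or 6, with 2546, 2596, 2133 and 2244 genes at an unadjusted p under 0.05. It was 4 without control replicate 5 and 17 without hypergravity replicate 5. Other filters, upper-quartile scaling and the non-robust fit gave 54 to 73.

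Over 68 values of the 4 genes under alternatives, 0 passed the threshold, with a smallest adjusted p of 0.0968 (Acta1, limma voom with weights). The sign turned in 11, and in 7 of these also relative to the median of all genes. Nppa was 0.64 on the log2 scale with limma voom and quality weights, -0.072 without them, and 0.11 with the replicate block. Voom weighted control replicate 6, the lowest in Nppa, at 2.02 and the other controls at 0.493 to 0.541, and hypergravity replicate 4, the highest in Myh7 and Acta1, at 2.53 and the others of its group at 1.17 and 1.18. Nppb was -0.21 with library size alone and -0.10 without the 10 most abundant genes in the total. Myh7 was -0.064 with library size alone and 0.79 with limma voom and weights, 0.10 without them. Relative to the median of all genes, these values of Nppb and Myh7 under other totals were above 0 (0.11 to 0.28). With each library left out, the values ran from -0.48 to 0.049 for Nppa, -0.18 to 0.26 for Nppb, -0.57 to 0.48 for Myh7 and 0.11 to 0.39 for Acta1, and the Nppa to Nppb difference from -0.74 to 0.11. The replicate block changed no call among the 4 genes. For the other moves, the cause was not tested. With 3 libraries against 3 the exact test of the ratio allows no p below 0.1.

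Alternatives for Myh6, Actc1, their ratios and the lists were not run, since these identifiers were not named here. The Poisson error of the lowest count, 1.47%, covers counting only.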
